A study of Mus musculus with 20 samples.

Results

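Kcnq3, Kcnq5, Kcnn1, Kcnn2 and Kcnn3 encode subunits of the potassium channels that shape the afterhyperpolarization of neurons, and they are 5 of the 32285 genes counted in the nuclei of mouse hippocampus. The members were taken by name, and their UMIs (unique molecular identifiers, counted RNA molecules) were followed by cell class, anesthetic and genotype. The study asked how mutations of familial Alzheimer's disease (fAD) alter the response of hippocampal neurons to general anesthesia, and nuclei were profiled by single-nucleus RNA sequencing after wakefulness or anesthesia.

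Kcnq subunits assemble into M-channels, voltage-gated channels that open slowly below the spike threshold, need the membrane lipid PIP2 and close when muscarinic acetylcholine receptors deplete it. Kcnn subunits form the SK channels, which have no voltage sensor and open when calcium binds the calmodulin that they carry. In hippocampal pyramidal neurons both kinds of current follow spikes, oppose repetitive firing and so limit excitability.

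All 20 mice were males of 4.5 to 5.5 months, either APP/PS1 (APPSwe/PS1ΔE9) or wild-type littermates, and each gave 1 library. The labels gave 6 WT-Awake and 3 fAD-Awake mice, and 3 mice as WT-GA and 4 as fAD-GA, where GA is 3 h of isoflurane that began at 5% and was lowered to 1.5%. A further 2 WT-Ketamine and 2 fAD-Ketamine mice received 150 mg/kg ketamine with 12 mg/kg xylazine, also for 3 h of anesthesia. The series' own text gives other group sizes. The genotype labels were checked with Prnp, the prion protein gene, since transgenes such as these are often placed in its expression cassette. In CA1-like nuclei it was at 61.0 to 492 CPM (counts per 1000000 UMIs of those nuclei) in the 9 mice labelled APP/PS1 and at 37.5 to 179.6 in the 11 labelled WT, and only 4 of the 9 lay above all of the 11. Over all mice the check thus did not separate the labelled genotypes: fAD-GA mouse 11 was the lowest of the 9 and WT-Awake mouse 14 the highest of the 11. Among mice 1 to 4, those labelled APP/PS1 (281 and 492 CPM) lay above those labelled WT (104 and 136 CPM). Mice 25 to 29 also separated (162 and 164 against 37.5 to 52.3 CPM), whereas mice 10 to 13, 14 to 17 and 18 to 20 did not. Whether labels of single mice are wrong was not tested. Groups are named as labelled, and every comparison of genotypes below rests on these labels.

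The libraries held 160777 nuclei and 9243992 to 25394891 UMIs per mouse, with a median of 1235 to 3169 UMIs per nucleus. Any 2 libraries shared at most 35 cell barcodes. Mice 1 to 4 stood apart: 0.939% to 1.78% of their UMIs were mitochondrial, against 0.0353% to 0.336% in the other mice. Most of their CA1-like nuclei (93.9%) were in a cluster of their own, whereas 99.0% of those of the other mice were in another cluster, and oligodendrocyte nuclei were divided likewise. Of dentate gyrus nuclei, 94.7% of those of mice 1 to 4 were in a cluster of their own, and those of the other mice were in 2 other clusters (52.4% and 46.4%). Results are therefore also given without these 4 mice where that changed a call of a member. All 4 ketamine mice fell in the run of mouse numbers 25 to 29, which held 1 other mouse, awake mouse 29, so ketamine and that run can hardly be told apart. The methods describe tissue processed in batches that each held several groups, but the labels assign no mouse to a batch.

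Nuclei were grouped into classes by clusters and marker genes, and named after the markers that led them (CA1-like, CA3-like and so on). UMIs were summed per mouse and class, and a level is that sum in CPM, counts per 1000000 UMIs of the mouse and class, scaled by the trimmed mean of M-values (TMM) within the class. Of 11 classes with levels, 9 had enough mice to be tested. The members and the genes of the related list were kept out of the genes used for clustering.

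In the files' build, GRCm38, Kcnq3 (ENSMUSG00000056258) lies at chr15:65986387-66286642 on the minus strand, and Kcnq5 (ENSMUSG00000028033) at chr1:21398403-21961942 on the minus strand. Kcnn1 (ENSMUSG00000002908) lies at chr8:70842049-70863258 on the minus strand, Kcnn2 (ENSMUSG00000054477) at chr18:45268860-45686024 and Kcnn3 (ENSMUSG00000000794) at chr3:89520164-89675132, both on the plus strand. Exons made up 4.90% of the 300256 bases of Kcnq3 and 1.36% of the 563540 bases of Kcnq5. Kcnn1 was the shortest, with 21210 bases, and Kcnn2 and Kcnn3 spanned 417165 and 154969 bases. Counting included introns, so reads from the 3 short annotated features that lie inside Kcnq5 on the same strand cannot be told from Kcnq5.

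Over all nuclei, the files held 252238 UMIs of Kcnq3, 338371 of Kcnq5, 131622 of Kcnn2, 14744 of Kcnn3 and 1064 of Kcnn1. Kcnq3, Kcnq5 and Kcnn2 passed the filter on low counts in 9 of 9 tested classes, Kcnn3 in 6 and Kcnn1 in 3. This gave 36 tests of a member in a class for each comparison. Kcnn1 was sparse throughout, with 123 UMIs in all CA1-like nuclei and 271 in the subiculum and cortex class.

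**Figure D1:**
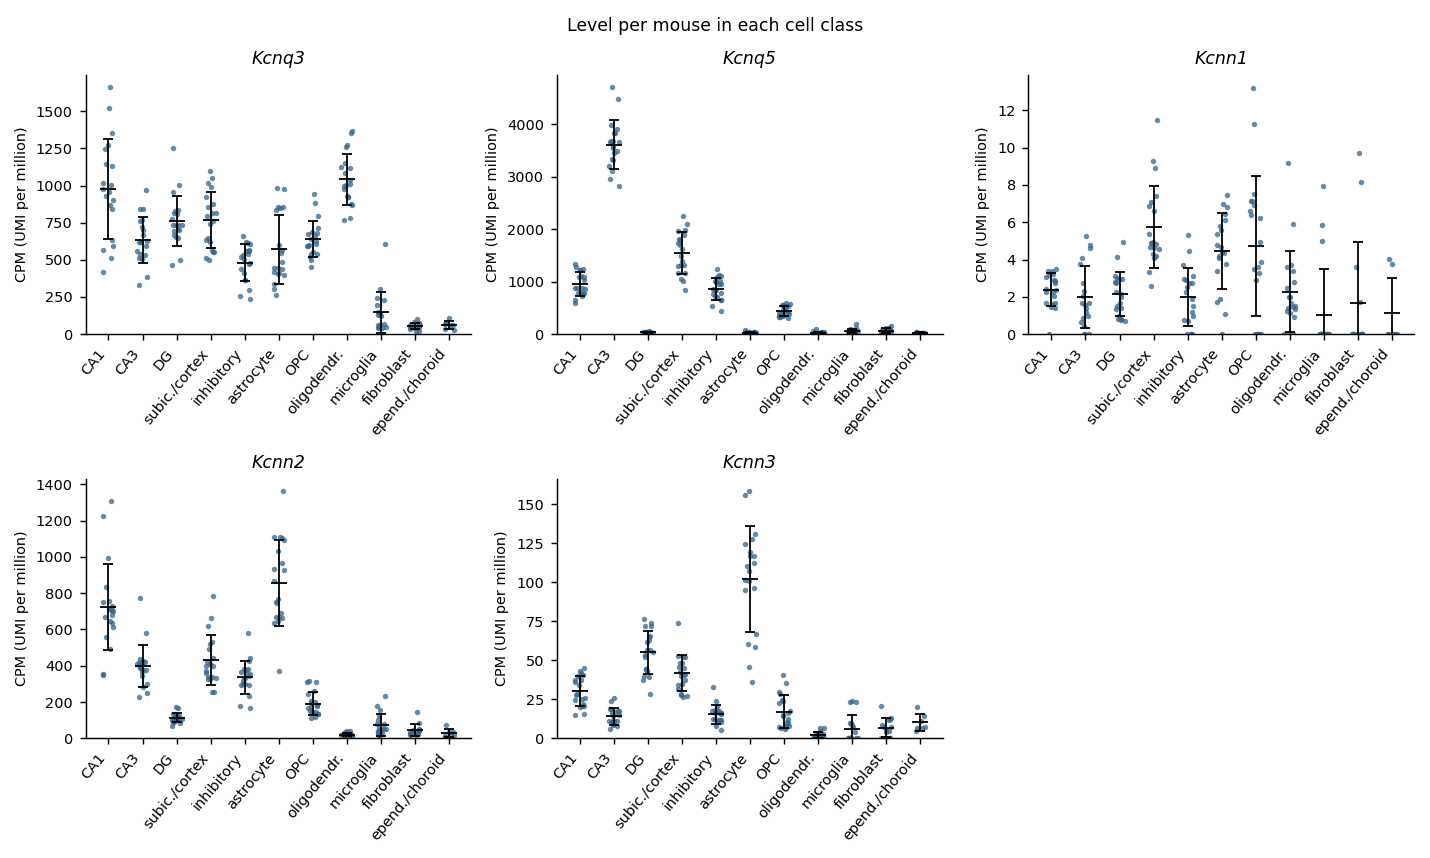
Level of each gene per mouse (points) in 11 cell classes, in CPM on a linear axis from 0 that differs between panels, with the mean and SD over mice (bars). Kcnq5 was highest in CA3-like nuclei, Kcnq3 in oligodendrocyte and CA1-like nuclei, and Kcnn2 and Kcnn3 in astrocytes.

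The 5 genes had different class patterns. To order the classes of a gene, each class was compared with the next lower one within mice, on the log2(CPM + 1) scale, with a paired two-sided permutation test adjusted over all 50 neighbouring pairs. Because scaling was done within each class, levels in different classes are shares of different RNA pools.

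Kcnq3, the M-channel subunit that usually assembles with other Kcnq subunits, was present in neurons and in glia. Its level was 1041 ± 174 CPM in oligodendrocytes and 978 ± 335 CPM in CA1-like nuclei (SD, n = 20 mice), which did not differ beyond the spread (0.16 log2, higher in oligodendrocytes in 13 of 20 mice, permutation adjusted p = 0.325). This comparison pools states. In means per run of mouse numbers, oligodendrocytes were above CA1-like nuclei under GA (776 to 1353 against 490 to 900 CPM). They were below them under ketamine (935 against 1317 CPM), and the ranges of awake mice overlapped (899 to 1365 and 898 to 1274 CPM). CA1-like nuclei were above the subiculum and cortex class (766 ± 189 CPM, permutation adjusted p = 0.00193, in 17 of 20 mice). Dentate gyrus (762 ± 170 CPM) was above oligodendrocyte precursors, called OPCs (640.4 ± 123 CPM, permutation adjusted p = 0.000143). The levels of OPCs, CA3-like nuclei (636 ± 155 CPM), astrocytes (571 ± 233 CPM) and inhibitory neurons (479.7 ± 124 CPM) did not differ from one to the next over pooled states. Under GA, run means of astrocytes (624 to 986 CPM) were above those of inhibitory neurons (247 to 535 CPM). In awake mice they were below them in every run except mice 1 to 4. Microglia, with 148 ± 138 CPM (n = 18), were below inhibitory neurons in 18 of 18 mice.

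Free RNA from lysed neurons gives every nucleus some neuronal UMIs, and its size was read from 5 neuronal genes, Rbfox3, Snap25, Syt1, Grin1 and Syn1. Their level in astrocytes was 3.48% to 17.1% of that in CA1-like nuclei, and in oligodendrocytes 3.01% to 22.2%. Kcnq3 stood at 58.4% in astrocytes, 106% in oligodendrocytes and 65.5% in OPCs, above every one of these genes. In microglia (15.1%), fibroblasts (5.51%) and the ependymal and choroid class (6.36%) it was within their range, and there it is read as background.

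Kcnq5, an M-channel subunit, was led by CA3-like nuclei at 3612 ± 459 CPM (n = 20), from 2821 CPM in the lowest mouse to 4711 CPM in the highest. The subiculum and cortex class followed at 1545 ± 397 CPM, lower in 20 of 20 mice by 1.26 on the log2 scale (permutation adjusted p = 0.000143). CA1-like nuclei (961 ± 227 CPM), inhibitory neurons (863 ± 208 CPM) and OPCs (443 ± 96.0 CPM) came next, and each of these steps also passed the test. Although Kcnq5 was not used for clustering, it was among the 10 leading genes of the CA3-like cluster.

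The dentate gyrus was the exception among neurons: Kcnq5 was at 31.3 ± 11.9 CPM there, against 28.6 ± 19.7 CPM in oligodendrocytes and 28.1 ± 15.4 CPM in astrocytes. In these glia, Kcnq5 was at 2.97% and 2.92% of its CA1-like level, below all 5 neuronal genes, and is read as background. Dentate nuclei were 0.27 log2 above oligodendrocytes, higher in 12 of 20 mice, which did not pass the test (permutation adjusted p = 0.108). With nuclei assigned 1 by 1 from their markers, Kcnq5 was at 64.3 CPM in dentate nuclei, 185 CPM in oligodendrocytes and 55.8 CPM in astrocytes, so these low levels and their order depend on how the classes are drawn. In OPCs, Kcnq5 stood at 46.0% of its CA1-like level, where the neuronal genes reached 3.48% to 42.1%.

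Kcnn2, the SK2 subunit of the channels that open with calcium, was highest in astrocytes at 856 ± 235 CPM (n = 20). CA1-like nuclei had 722 ± 237 CPM, a step that narrowly passed the test (0.26 log2, in 14 of 20 mice, permutation adjusted p = 0.0459). In CA1-like nuclei Kcnn2 was above the subiculum and cortex class (429.6 ± 138 CPM) in 20 of 20 mice. CA3-like nuclei were at 398 ± 116 CPM, inhibitory neurons at 338 ± 91.0 CPM, OPCs at 192 ± 64.2 CPM and dentate nuclei at 114 ± 26.1 CPM. The OPC level was 26.6% of that in CA1-like nuclei, within the 3.48% to 42.1% of the neuronal genes, so Kcnn2 in OPCs is not separable from background. At 21.0 ± 9.29 CPM, or 2.91% of the CA1-like level, oligodendrocytes were at background (81.4 CPM with nuclei assigned 1 by 1).

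Single mice stood at the same ends of the Kcnn2 range in several classes. The highest CA1-like levels were those of fAD-GA mouse 20 (1306 CPM) and WT-Awake mouse 19 (1224 CPM), and the lowest those of WT-GA mouse 3 (351 CPM) and fAD-GA mouse 4 (353 CPM). The same mice were at the ends in CA3-like nuclei, with 771 CPM in mouse 20, 578 in mouse 19, 227 in mouse 3 and 248 in mouse 4. Mice 19 and 20 belong to different genotypes and states by their labels but to the same run of numbers, in which mouse 18 had 699.6 CPM in CA1-like nuclei.

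Kcnn3, the SK3 subunit, was also led by astrocytes, at 102 ± 33.7 CPM (n = 20). Dentate nuclei followed at 55.0 ± 13.7 CPM (0.83 log2 lower, in 17 of 20 mice, permutation adjusted p = 0.001), then the subiculum and cortex class at 41.6 ± 11.5 CPM and CA1-like nuclei at 30.1 ± 9.61 CPM. These steps passed the test, whereas those between OPCs (17.2 ± 10.4 CPM), inhibitory neurons (15.4 ± 6.0 CPM) and CA3-like nuclei (14.1 ± 5.37 CPM) did not. In oligodendrocytes, Kcnn3 was at 2.06 ± 2.00 CPM, within the range of the neuronal genes. With nuclei assigned 1 by 1 it was at 11.5 CPM there and at 26.9 CPM in inhibitory neurons.

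Among the named neuronal classes, Kcnn3 thus had its highest level in dentate nuclei, while Kcnq5 and Kcnn2 had their lowest there. Kcnn1, the SK1 subunit, was at 5.74 ± 2.21 CPM in the subiculum and cortex class and at 4.45 ± 2.04 CPM in astrocytes, with a single step of 10, between astrocytes and CA1-like nuclei (2.37 ± 0.88 CPM), past the test (permutation adjusted p = 0.0293). The highest class of each of the 5 genes over pooled states stayed the same with finer clusters, with nuclei assigned 1 by 1 from their markers, and without mice 1 to 4. Within states it did not always hold. In ketamine mice, CA1-like nuclei were above oligodendrocytes for Kcnq3 (1317 against 935 CPM) and above astrocytes for Kcnn2 (713 against 668 CPM). These orders were not limited to ketamine. Kcnn2 had the same order in awake mouse 29 (994 against 634 CPM) and awake mouse 19 (1224 against 931 CPM). Kcnq3 had it in the mean of awake mice 10 to 13 (1265 against 1102 CPM). The awake means of the other runs went the other way for each gene. Under GA, Kcnn3 was higher in dentate nuclei than in astrocytes in mice 14 to 17 (60.5 against 51.4 CPM) and 18 to 20, and lower in the other runs. In the assignment 1 by 1, Kcnq3 was at 966 ± 209 CPM in oligodendrocytes (n = 20) and 938 ± 271 CPM in CA1-like nuclei (n = 19).

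**Figure D2:**
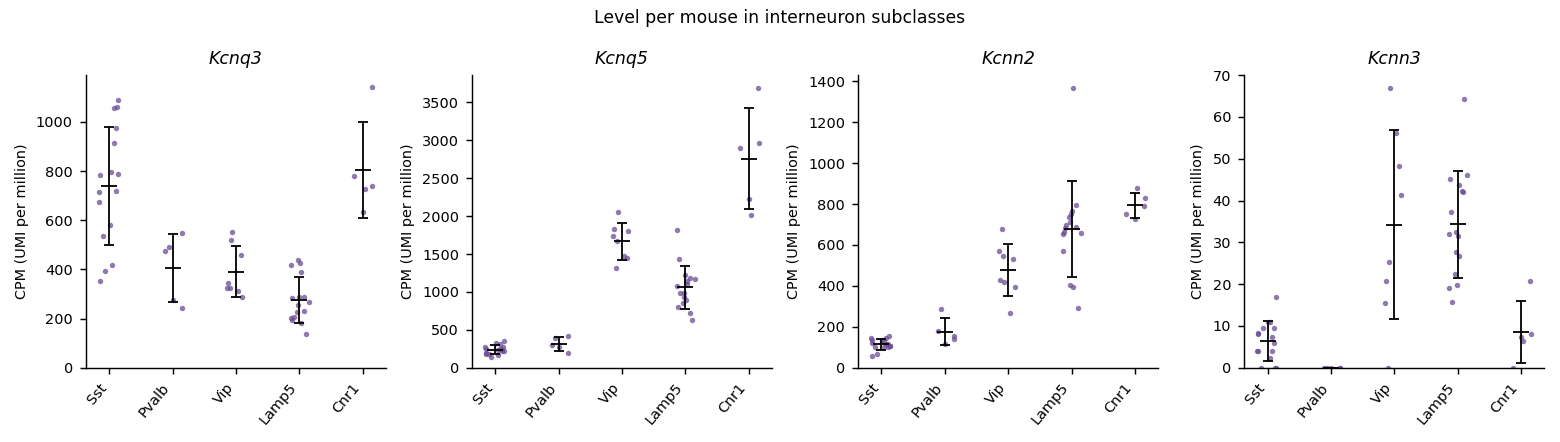
Level per mouse (points) of 4 of the genes in 5 subclasses of inhibitory nuclei, in CPM from 0, with mean and SD over mice (bars). Kcnq5 and Kcnn2 were low in the Sst and Pvalb subclasses and high in the Cnr1 subclass.

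Inhibitory nuclei were split again by their markers, and 5 subclasses had mice with 50 nuclei or more. The Sst and Vip subclasses each include 1 cluster (710 and 267 nuclei) with 3 raised markers of which 0 were among its 10 leading genes. Levels in these are given without tests, with 16 mice each for the Sst and Lamp5 subclasses, 8 for Vip and 5 each for Pvalb and Cnr1. Kcnq5 was at 2756 ± 666 CPM (n = 5) in the Cnr1 subclass, 1666 ± 242 CPM (n = 8) in the Vip subclass and 1059.7 ± 287 CPM (n = 16) in the Lamp5 subclass. It was at 319 ± 90.6 CPM (n = 5) in the Pvalb subclass and 240.2 ± 58.3 CPM (n = 16) in the Sst subclass, so the ranges of the last 2 subclasses did not overlap those of the other three. Kcnn2 was also low in the Pvalb and Sst subclasses, with 794 ± 60.9 CPM in Cnr1, 677 ± 234 in Lamp5 and 479 ± 128 in Vip nuclei, against 177 ± 66.4 in Pvalb and 116 ± 27.2 in Sst nuclei.

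Kcnq3 went another way, since Sst nuclei (741 ± 240.1 CPM, n = 16) were near Cnr1 nuclei (805 ± 196 CPM, n = 5) and Lamp5 nuclei were lowest (277 ± 93.8 CPM, n = 16). Kcnn3 was at 34.3 ± 12.7 CPM in Lamp5 and 34.3 ± 22.6 CPM in Vip nuclei, and at 6.36 ± 4.72 CPM in Sst nuclei. In the Pvalb subclass 0 of 293 nuclei had a UMI of Kcnn3, which allows a share of nuclei with a UMI of up to 1.02% by counting error and sets no limit on the share that express the gene. Cluster 11, which was left unnamed for want of raised markers, had a Kcnn3 level of 208 ± 84.6 CPM (n = 9), the highest of the 11 classes, 5 subclasses and 2 unnamed clusters with levels. WT-GA mouse 16, with 1746 of these nuclei, was at 40.8 CPM, and the other mice were at 98.0 to 284 CPM. Kcnq3 was at 681 ± 552 CPM there.

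The genes most like each member over the 11 classes were found among 17200 genes by Pearson's r of the mean log2 CPM, as a description. For Kcnq3 they were Gm27153 (r = 0.98), an antisense gene inside Kcnq3 on the opposite strand, Akap6 (r = 0.97) and Otud7a (r = 0.96). For Kcnq5 they were Brinp2 (r = 0.97), D030068K23Rik (r = 0.95) and Pde4d (r = 0.92), and for Kcnn2 4930570B17Rik (r = 0.96), Adam23 (r = 0.94) and Dgkb (r = 0.93). For Kcnn3 they were Gm21954 (r = 0.89), Ngef (r = 0.88) and Mras (r = 0.88), and for the sparse Kcnn1 they were Gm16553, Gm26604 and B230112J18Rik (r = 0.97 each).

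Isoflurane was compared with wakefulness first. In GA mice, Kcnq3 was lower in CA1-like nuclei and in the subiculum and cortex class and higher in astrocytes, Kcnq5 was lower in the subiculum and cortex class and in inhibitory neurons, and Kcnn3 was lower in astrocytes. With the difference averaged over both genotypes in edgeR's quasi-likelihood test and Benjamini-Hochberg adjustment over all genes of a class, 6 of 36 tests of the members passed an adjusted p of 0.05, 5 lower and 1 higher. Over all genes and classes, 4.55% of the 104151 tests passed. The median difference of the 36 tests was -0.29 on the log2 scale, where the medians of all genes lay between 0.00 and 0.03 in the 9 classes. The 36 include members at background levels, such as Kcnq5 in oligodendrocytes and astrocytes.

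**Figure D3:**
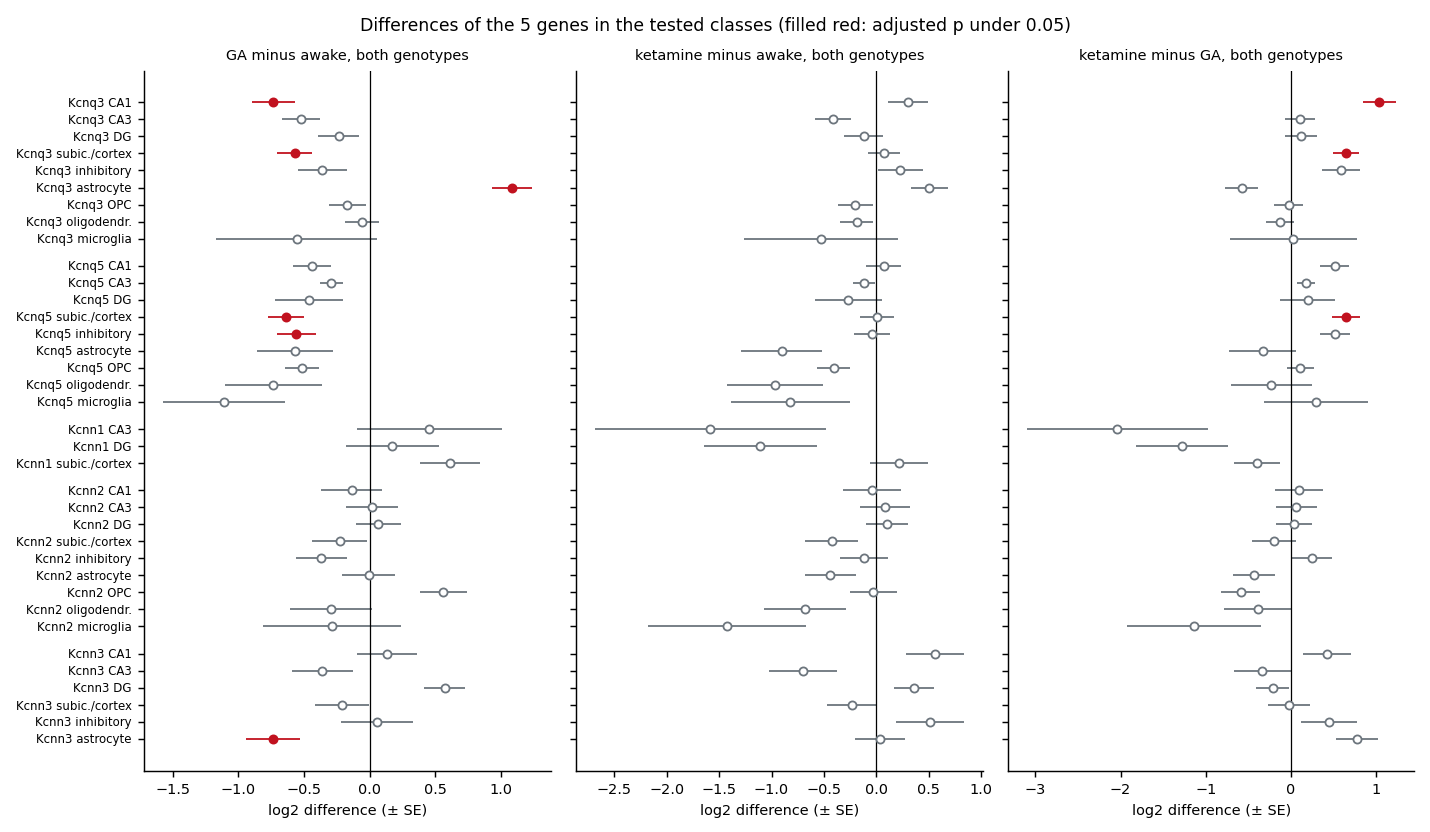
Log2 difference with its SE of each gene in each tested class, for GA minus awake, ketamine minus awake and ketamine minus GA, averaged over both genotypes. Filled red points passed an adjusted p of 0.05 (6, 0 and 3 of 36), and the axes of the panels differ.

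In CA1-like nuclei, Kcnq3 was at 869 to 1664 CPM (median 1009.7) in the 6 WT-Awake mice and at 927, 1129.7 and 976 CPM in the fAD-Awake mice. The WT-GA mice had 564, 844 and 633 CPM, and the fAD-GA mice 417, 900.2, 595 and 513 CPM. All but 1 of the GA mice (mouse 11, 900.2 CPM) lay below the lowest awake mouse, and GA mice differed from awake mice by -0.74 log2 (SE 0.16, edgeR adjusted p = 0.0116). The exact permutation test of 7 against 9 mice gave -0.79 (p = 0.00035, adjusted p = 0.0122 over 35 tests of the members in CA1-like nuclei), and it alone of these 35 passed 0.05. GA mice were lower in 4 of the 4 runs of mouse numbers that held both states (-0.87 to -0.43). Of these runs, mice 10 to 13 held 1 GA mouse and mice 18 to 20 held 1 awake mouse. Here and below, counts of runs use mice that are also in the main test and are not a replication of it. Without mice 1 to 4, the difference was -0.65 and its adjusted p 0.0589. The 6 CA1 markers in the same sums were at 891 to 1244 CPM (median 1198) in awake and 771 to 1169 CPM (median 1018) in GA mice, and their part in the result was not tested.

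Kcnq3 had the same direction in the subiculum and cortex class, where the WT-Awake mice had 634 to 1099 CPM (median 804) and the fAD-Awake mice 647, 924 and 993 CPM, against 549, 496 and 623 CPM in WT-GA and 565, 742, 513 and 552 CPM in fAD-GA mice. Of the 7 GA mice, 6 lay below every awake mouse, and the difference was -0.57 (SE 0.13, edgeR adjusted p = 0.0092). GA mice were lower in 4 of 4 runs, from -0.80 to -0.20 log2. With nuclei assigned 1 by 1 from their markers, it was -0.58 with an adjusted p of 0.0662. In CA3-like nuclei, the Kcnq3 difference was -0.52 (edgeR adjusted p = 0.063), and GA mice had 329.8 to 720.0 CPM against 595 to 968 CPM in awake mice. With runs of mouse numbers as a block it was -0.46 with an adjusted p of 0.0119. Single mice left out apart, it did not pass in 6 of 9 alternatives, with an adjusted p of up to 0.226.

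Astrocytes moved in the opposite direction. Their Kcnq3 level was 337 to 445 CPM (median 413) in WT-Awake mice and 482, 305 and 265 CPM in fAD-Awake mice. Under GA it was 409.5, 852 and 853 CPM in WT and 838, 986, 977 and 858 CPM in fAD mice, so 6 of 7 GA mice lay above every awake mouse and WT-GA mouse 3 lay among them. The difference was 1.09 log2 (SE 0.15, edgeR adjusted p = 0.000238), it was positive in 4 of 4 runs (0.43 to 1.50), and it passed the threshold under every alternative tried, from 0.60 with doublets kept to 1.42 without mice 1 to 4. Within fAD-labelled mice it was 1.38 (edgeR adjusted p = 0.00579), a call that ended with doublets kept (0.81, adjusted p = 0.0657) and without fAD-Awake mouse 10 (1.29, adjusted p = 0.066). Within WT-labelled mice it was 0.79 (edgeR adjusted p = 0.055), and 1.11 with an adjusted p of 0.00159 without mice 1 to 4.

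The difference of Kcnq3 between astrocytes and other classes was compared within mice, after it had been seen. The log2 ratio of astrocytes to CA1-like nuclei was 1.85 higher in 7 GA than in 9 awake mice (exact permutation p = 0.000175, the smallest that these numbers allow, adjusted p = 0.000262 over 3 tests). It was 1.61 higher against the subiculum and cortex class and 1.15 higher against oligodendrocytes (exact permutation adjusted p = 0.000262 and 0.00035). In oligodendrocytes, whose Kcnq3 level over all mice was the highest, the GA difference of Kcnq3 itself was -0.06 (edgeR adjusted p = 0.89).

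Markers of other cells were measured in the same astrocyte sums. The 7 oligodendrocyte markers together were at 192 to 1484 CPM (median 619) in awake and 323 to 1097 CPM (median 596) in GA mice, with 0 of the 7 undetected, and the 6 CA1 markers at 78.7 to 146 CPM (median 96.6) and 76.5 to 116 CPM (median 105). The 7 astrocyte markers had medians of 6306 CPM in awake and 5620 CPM in GA mice. Other lists moved more: the 7 subiculum and cortex markers were at 1324 to 2405 CPM (median 1668) in awake and 907.5 to 2909 CPM (median 1031) in GA mice. That list includes Rorb, 1 of the 10 leading genes of the astrocyte cluster. Its sum there is thus not a measure of other cells alone. The 6 endothelial markers were at 4.20 to 179.9 CPM (median 21.2) and 14.6 to 54.0 CPM (median 37.8), and the 6 mural markers at 68.1 to 174 CPM (median 105) and 108 to 249.9 CPM (median 135), with 0 of them undetected. The neuronal genes in astrocytes differed between GA and awake by -0.28 to 0.65 log2, and none of the 5 passed the test. In CA1-like nuclei, Rbfox3 was among the genes lower under GA (-0.38, edgeR adjusted p = 0.034), and in the subiculum and cortex class Snap25, Syn1 and Syt1 were (-0.43, -0.36 and -0.54). The part of these markers and genes in the Kcnq and Kcnn3 results was not tested.

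**Figure D4:**
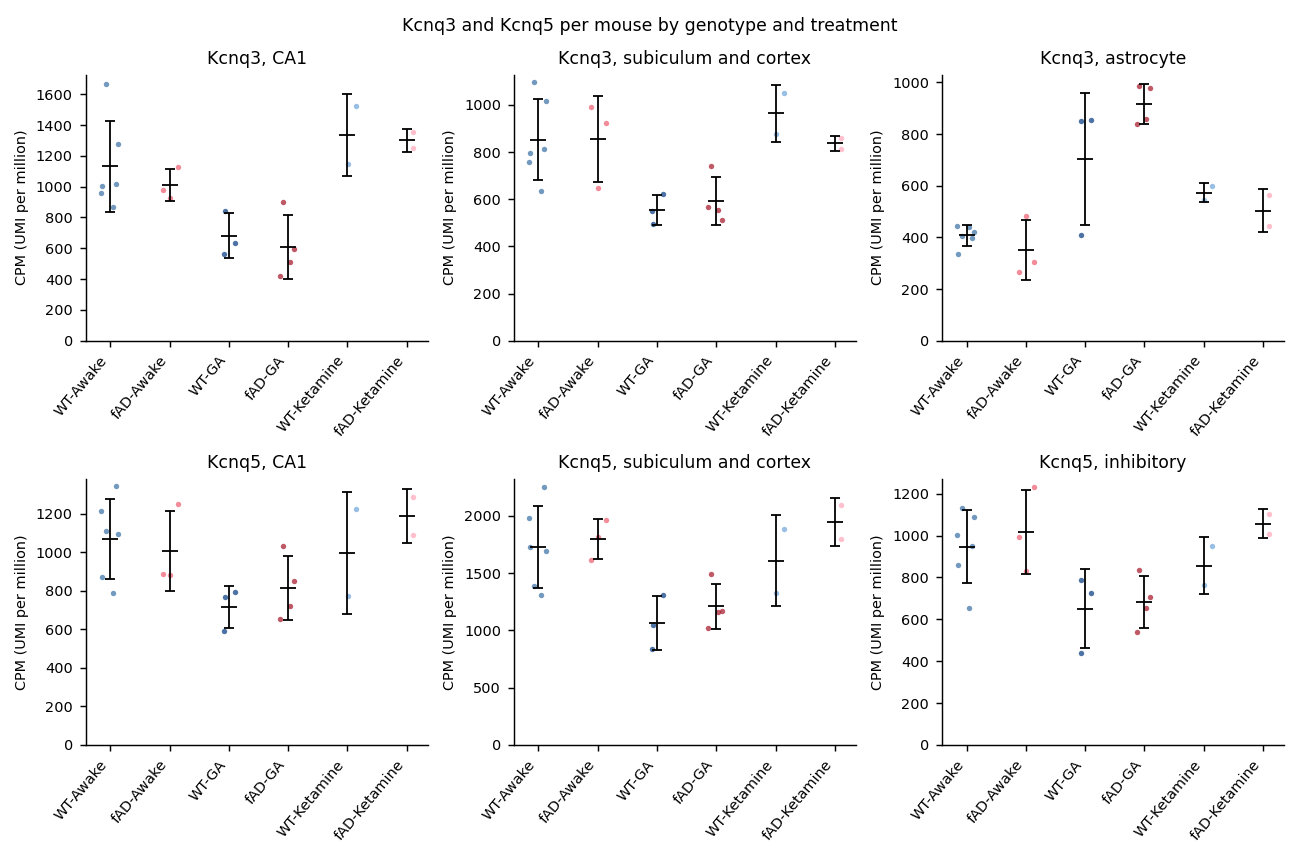
Level per mouse (points) of Kcnq3 and Kcnq5 by group as labelled, in CPM from 0, with mean and SD (bars). GA mice sat low for Kcnq3 in CA1-like nuclei and for Kcnq5 in the subiculum and cortex class, and high for Kcnq3 in astrocytes, where WT-GA mouse 3 (409.5 CPM) sat with the awake mice.

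Kcnq5 was at 1305 to 2252 CPM (median 1712) in the subiculum and cortex class of WT-Awake mice and at 1814, 1968 and 1616 CPM in fAD-Awake mice. The WT-GA mice had 838, 1043 and 1308 CPM and the fAD-GA mice 1019, 1489, 1169 and 1165 CPM. The groups overlapped through WT-GA mouse 18 (1308 CPM) and fAD-GA mouse 11 (1489 CPM), and the difference was -0.64 (SE 0.14, edgeR adjusted p = 0.00638), with lower values in 4 of 4 runs (-0.87 to -0.19). It depended on how the class was drawn, since it was -0.37 (adjusted p = 0.0707) with finer clusters and -0.36 (adjusted p = 0.201) with nuclei assigned 1 by 1.

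Markers of neighbouring cells moved in these subiculum and cortex sums along with both Kcnq genes. The 7 CA3 markers were at 330.4 to 448 CPM (median 409.9) in awake and 287 to 372.5 CPM (median 318) in GA mice, and Kcnq5 had its highest level in CA3-like nuclei. The 6 CA1 markers were at 479 to 632 CPM (median 557) and 397 to 546 CPM (median 477.5), while the 7 markers of the class itself were at 1652 to 2612 CPM (median 1933) and 1752 to 2664 CPM (median 2296), with 0 markers undetected. Their part in the Kcnq3 and Kcnq5 differences was not tested.

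In inhibitory neurons, Kcnq5 was at 653 to 1131 CPM (median 978) in WT-Awake mice and at 831, 1232 and 992 CPM in fAD-Awake mice. Under GA it was at 438, 788 and 728 CPM in WT and at 538, 833, 709 and 652 CPM in fAD mice. The groups overlapped and the difference was -0.56 (SE 0.15, edgeR adjusted p = 0.0444), lower in 4 of 4 runs. The call was close to the threshold, since leaving out 1 mouse at a time ended it for 16 of the 20 mice (-0.62 to -0.44, adjusted p 0.022 to 0.162), and so did keeping doublets (adjusted p = 0.0577) or leaving out the ketamine mice (adjusted p = 0.0767). The 9 inhibitory markers were at 6760 to 9940 CPM (median 8251) in awake and 5203 to 7581 CPM (median 6549) in GA mice of the same sums. The 7 CA3 markers, from the class with the most Kcnq5, were at 623 to 956 CPM (median 828) and 503 to 754 CPM (median 661), and Kcnq5 ranged from 240.2 to 2756 CPM between subclasses of inhibitory nuclei. The part of these in the difference was not tested.

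Kcnq5 was negative in each of the 9 classes, but 7 of these differences did not pass the test. In oligodendrocytes, astrocytes and microglia (6.04% of its CA1-like level) Kcnq5 is read as background, and dentate nuclei had a like low level. Its signs in these classes cannot be told from those of free RNA. In CA1-like nuclei, Kcnq5 was at 789 to 1343 CPM in 9 awake mice and at 592 to 1035 CPM in 7 GA mice (-0.44, edgeR adjusted p = 0.0769). In CA3-like nuclei, where it was highest, the difference was -0.29 (adjusted p = 0.0927), and in OPCs -0.52 (adjusted p = 0.074). For these 3 classes, GA mice were lower than awake mice of the same run in 4 of 4 runs. With runs as a block, Kcnq5 passed in CA1-like nuclei (-0.42, adjusted p = 0.0243) and in CA3-like nuclei (-0.26, adjusted p = 0.0315), and in OPCs it passed with DESeq2 (-0.52, adjusted p = 0.0208) and with finer clusters (-0.60, adjusted p = 0.0307). Single mice left out apart, Kcnq5 did not pass in 9 of 10 alternatives in CA1-like nuclei, 6 of 9 in CA3-like nuclei and 6 of 8 in OPCs. Adjusted p there went up to 0.191, 0.269 and 0.428.

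**Figure D5:**
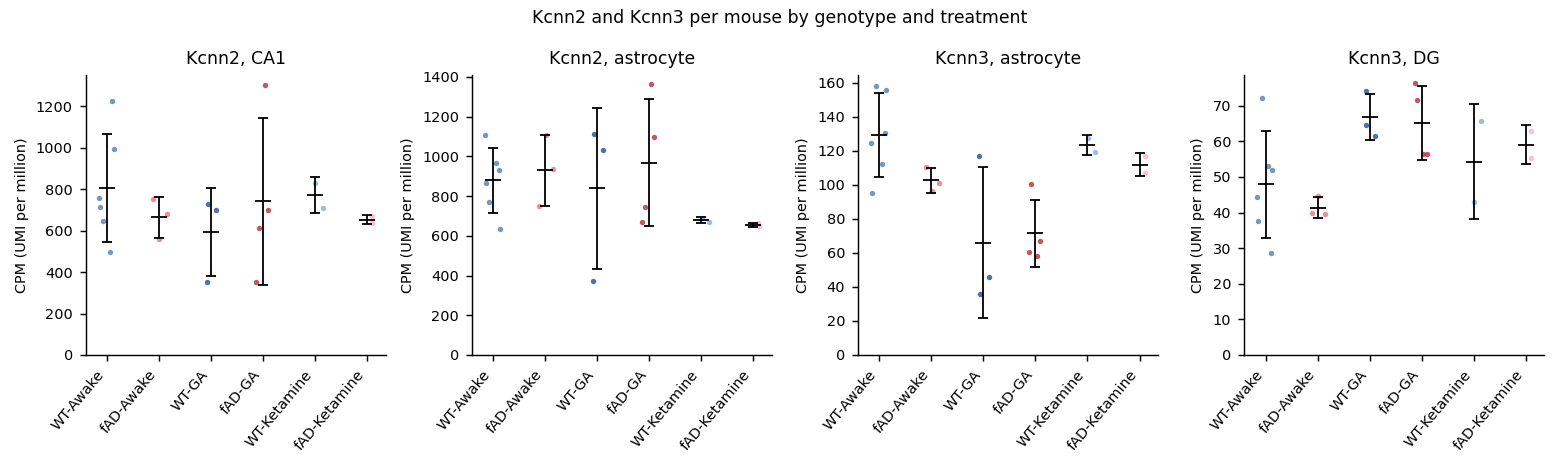
Level per mouse (points) of Kcnn2 in CA1-like nuclei and astrocytes and of Kcnn3 in astrocytes and dentate nuclei, by group as labelled, in CPM from 0, with mean and SD (bars). Kcnn3 in astrocytes was at 67.0 CPM or lower in 5 of 7 GA mice and at 95.1 CPM or higher in all other mice.

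Among SK subunits, Kcnn3 passed the test in astrocytes. It was at 95.1 to 158 CPM (median 128) in WT-Awake mice and at 96.3, 101 and 111 CPM in fAD-Awake mice. The WT-GA mice had 117, 35.8 and 45.7 CPM and the fAD-GA mice 60.3, 101, 67.0 and 58.2 CPM, so WT-GA mouse 3 and fAD-GA mouse 11 lay among the awake mice and the other 5 below all of them. The difference was -0.74 (SE 0.21, edgeR adjusted p = 0.0311), lower in 4 of 4 runs (-1.33 to -0.23). Without mouse 3 or mouse 11 it stayed past the threshold, and leaving out any of 7 other mice ended the call (adjusted p up to 0.103), as did keeping doublets (-0.64, adjusted p = 0.0738). Within WT-labelled mice the Kcnn3 difference was -0.95 and did not pass (edgeR adjusted p = 0.102), whereas it passed without mice 1 to 4 (-1.67, adjusted p = 0.00295), where WT-GA keeps 2 mice, 16 and 18.

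Dentate nuclei went the other way for Kcnn3. Awake mice had 28.6 to 72.1 CPM and GA mice 56.3 to 76.4 CPM, a difference of 0.57 (SE 0.16) that did not pass the main test (edgeR adjusted p = 0.0575) but did by DESeq2, with runs as a block and with nuclei assigned 1 by 1. In the other 6 of 9 alternatives, single mice left out apart, it did not pass (adjusted p up to 0.354). GA mice were higher in 4 of 4 runs, from 0.52 to 1.05 log2.

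Kcnn2 in CA1-like nuclei was at 495 to 1224 CPM (median 737) in WT-Awake mice, at 559.8, 679 and 753 CPM in fAD-Awake mice, at 351, 731 and 699.6 CPM in WT-GA mice and at 353, 614, 701 and 1306 CPM in fAD-GA mice. The groups overlapped widely, and GA differed from awake by -0.14 (SE 0.23, edgeR adjusted p = 0.836). Within runs GA mice were lower in 4 of 4 (-0.58 to -0.08), the fit with runs as a block gave -0.32 (adjusted p = 0.0523), and the sign turned without mice 1 to 4 (0.017). In inhibitory neurons, Kcnn2 was at 232 to 581 CPM in awake and 166 to 441 CPM in GA mice, lower in 4 of 4 runs, and its difference passed with runs as a block (-0.52, adjusted p = 0.00263, against -0.37 and 0.436 in the fit without it). In astrocytes, where Kcnn2 was highest, the difference was -0.01 (SE 0.20, adjusted p = 0.994), with opposite signs between runs: -0.99 within mice 1 to 4, -0.20 within mice 10 to 13, 0.25 within mice 14 to 17 and 0.36 within mice 18 to 20. In OPCs, Kcnn2 was at 118 to 208 CPM in awake and 114 to 315 CPM in GA mice (0.56, SE 0.18, adjusted p = 0.188), and without mice 1 to 4 this difference was 0.85 with an adjusted p of 0.0161, at a level not separable from background. Kcnn1 in the subiculum and cortex class was at 3.33 to 7.06 CPM in awake and 4.16 to 11.5 CPM in GA mice (0.62, SE 0.23, adjusted p = 0.103).

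Of 36 tests of the members, 0 were without overlap between all GA and all awake mice, and over all genes 1.09% of tests were. Within 1 genotype, 0 of 36 tests passed in WT-labelled mice, where 0.725% of all tests passed. An unadjusted p under 0.05 was found for 13 of the 36, and for 13339 of the 104151 tests of all genes. DESeq2 called 4 of the members' tests and 1.98% of all. In fAD-labelled mice 1 of 36 passed, Kcnq3 in astrocytes, where 0.566% of all tests did.

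Gene length moved with the GA difference. In CA1-like nuclei the median difference was -0.13 for genes of at least 150 kb and 0.02 for shorter genes, in the subiculum and cortex class -0.17 and 0.03, and in astrocytes -0.09 and 0.02. Kcnq3, Kcnq5, Kcnn2 and Kcnn3 are all above 150 kb. Of the long genes, 14.6% were called lower in the subiculum and cortex class and 6.26% in CA1-like nuclei, against 3.25% and 1.97% of the shorter genes. The part of gene length in the members' differences was not tested.

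Genotype was compared next, to see whether the members responded to GA differently in mice labelled fAD and WT. In awake mice 0 of 36 tests of the members passed between mice labelled fAD and WT, with 1 at an unadjusted p under 0.05 (Kcnq5 in astrocytes, at background, 0.84 log2). Over all genes 0% of tests passed in edgeR (2286 at an unadjusted p under 0.05) and 0 in DESeq2. In GA mice 0 of 36 passed, with 0 at an unadjusted p under 0.05, and over all genes 0% in edgeR (1831 unadjusted) and 3 tests in DESeq2. For the interaction of genotype and GA, 0 of 36 passed, with 0 at an unadjusted p under 0.05, and over all genes 0% in edgeR (3390 unadjusted) and 0 in DESeq2.

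Kcnq3 in CA1-like nuclei was at 1131 ± 294 CPM (n = 6) in WT-Awake and 1011 ± 106 CPM (n = 3) in fAD-Awake mice, a difference of -0.16 (SE 0.22). Under GA it was at 680.4 ± 146 CPM (n = 3) in WT and 606 ± 209 CPM (n = 4) in fAD mice, a difference of -0.17 (SE 0.24). The interaction was -0.01 (SE 0.33, edgeR adjusted p = 0.999). Kcnq5 in CA1-like nuclei differed by -0.09 (SE 0.19) awake and by 0.18 (SE 0.21) under GA. Kcnn2 was at 806 ± 262 and 664 ± 97.6 CPM in WT and fAD mice awake and at 594 ± 211 and 743 ± 403 CPM under GA, with differences of -0.28 (SE 0.32) and 0.32 (SE 0.34) and an interaction of 0.60 (SE 0.47, edgeR adjusted p = 0.905). The paper, in contrast, names Kcnn2 among its top genes that differed between genotypes in CA1 excitatory neurons under anesthesia. Its test was made on nuclei and its group sizes differ from those of the labels, whereas mice are the replicates here. The largest interaction among the Kcnq3 tests was in astrocytes, at 0.59 (SE 0.31, edgeR adjusted p = 0.939). In the exact permutation tests in CA1-like nuclei, 4 fAD against 3 WT mice cannot go below 0.0571.

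Ketamine and GA share the awake mice as controls, so both were also set against each other. Ketamine mice had higher Kcnq3 in CA1-like nuclei and in the subiculum and cortex class, and higher Kcnq5 in the latter, than GA mice. These were 3 of 36 tests, all 3 higher, where 5.17% of all tests passed. Against awake mice, 0 of 36 tests passed (6 at an unadjusted p under 0.05, and 25869 of the 104151 tests of all genes), where 6.96% of all tests did. Without mice 1 to 4, Kcnq3 passed against awake mice in CA3-like nuclei (-0.49, adjusted p = 0.0443) and in astrocytes (0.67, adjusted p = 0.00462).

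In CA1-like nuclei, Kcnq3 was at 1521 and 1148 CPM in the WT-Ketamine mice and at 1248 and 1352 CPM in the fAD-Ketamine mice, all above the 7 GA mice (417 to 900.2 CPM). The difference from GA was 1.04 (SE 0.19, edgeR adjusted p = 0.00622), and from awake mice 0.30 (SE 0.19, adjusted p = 0.319). The exact permutation test of 4 against 7 mice gave its smallest possible p, 0.00606, with an adjusted p of 0.0877. Awake mouse 29, of the same run as the ketamine mice, had 1274 CPM, between the ketamine mice. Without WT-Ketamine mouse 27 the difference from GA was 0.93 with an adjusted p of 0.0578, and with nuclei assigned 1 by 1, where WT-Ketamine kept 1 mouse, it was 0.67 with an adjusted p of 0.171. In the same sums the 6 CA1 markers were at 655 to 845 CPM (median 732) in ketamine and 771 to 1169 CPM (median 1018) in GA mice. The 7 CA3 markers were at 74.9 to 113 CPM (median 98.8) and 127 to 149.6 CPM (median 130.3), without overlap. The 7 subiculum and cortex markers were at 87.4 to 165 CPM (median 124) and 46.2 to 260.8 CPM (median 64.9), and the 6 dentate markers at 56.2 to 123 CPM (median 83.4) and 40.5 to 78.5 CPM (median 51.8), with 0 markers undetected. Their part in the difference was not tested.

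In the subiculum and cortex class, the ketamine mice had 1049.5 and 878 CPM (WT) and 815 and 858 CPM (fAD) of Kcnq3, above the 7 GA mice (496 to 742 CPM), a difference of 0.65 (SE 0.16, edgeR adjusted p = 0.0189) that did not pass with nuclei assigned 1 by 1 (0.51, adjusted p = 0.16). Without fAD-Ketamine mouse 25 it was 0.68 and without mouse 26 0.62, and each of these fits leaves 1 mouse in that group. These Kcnq3 tests were the 2 of 36 tests in which ketamine and GA mice did not overlap, against 6.4% of all tests. Kcnq5 there was at 1888 and 1326 CPM in WT-Ketamine and 2095 and 1801 CPM in fAD-Ketamine mice, a difference of 0.64 (SE 0.16, edgeR adjusted p = 0.0242), and WT-Ketamine mouse 28 lay within the GA range. The Kcnq5 call ended without mice 1 to 4 (0.52, adjusted p = 0.058), with finer clusters (0.40, adjusted p = 0.104) and with nuclei assigned 1 by 1 (0.58, adjusted p = 0.0587). It also ended without WT-GA mouse 3 (0.57, adjusted p = 0.0511). Mouse 29 had 1018 CPM of Kcnq3 and 1697 CPM of Kcnq5. In the same sums the 6 dentate markers were at 199 to 281 CPM (median 211) in ketamine and 84.0 to 139 CPM (median 99.2) in GA mice, without overlap. The 7 CA3 markers were at 323 to 451.5 CPM (median 392) and 287 to 372.5 CPM (median 318), and the 7 markers of the class itself at 2111 to 2426 CPM (median 2199) and 1752 to 2664 CPM (median 2296), with 0 markers undetected. Their part in the 2 differences was not tested.

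With the runs of mouse numbers as a block, none of these 3 differences passed (0.69, 0.23 and 0.65, adjusted p 0.461 to 0.85), and over all genes 7 tests did. In that fit, mouse 29 is the 1 mouse without ketamine in the run of the ketamine mice. Without WT-Ketamine mouse 27, which leaves 1 mouse in its group, all 3 differences from GA were smaller. They were 0.93 for Kcnq3 in CA1-like nuclei, and 0.58 for Kcnq3 and 0.50 for Kcnq5 in the subiculum and cortex class. Genes of at least 150 kb had a median of 0.13 in CA1-like nuclei and 0.20 in the subiculum and cortex class between ketamine and GA, against -0.08 and -0.07 for shorter genes.

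In astrocytes, Kcnq3 was at 598 and 546 CPM in WT-Ketamine and 563 and 444 CPM in fAD-Ketamine mice. These values lay between most awake and most GA mice, and neither difference passed (0.50 from awake, edgeR adjusted p = 0.0847, and -0.58 from GA, adjusted p = 0.0574). Kcnn3 in astrocytes was at 119, 128, 117 and 107 CPM, within the awake range (0.03 from awake, adjusted p = 0.946), and 0.77 above GA (adjusted p = 0.0528). Without mice 1 to 4, both differences from GA passed, at -0.75 (adjusted p = 0.00334) for Kcnq3 and 1.08 (adjusted p = 0.00548) for Kcnn3, and both passed with DESeq2 (adjusted p = 0.0394 and 0.0373). Kcnq3 also passed with nuclei assigned 1 by 1 (-0.78, adjusted p = 0.0189). For each of the 2 genes, 5 of 8 alternatives did not pass, single mice left out apart. Their adjusted p went up to 0.746 for Kcnq3 and 0.879 for Kcnn3, and the smallest differences were -0.30 and 0.42. Kcnn2 passed against GA without mice 1 to 4 in astrocytes (-0.69, adjusted p = 0.0317) and in OPCs (-0.83, adjusted p = 0.0306). Kcnn2 in CA1-like nuclei was at 711 and 832 CPM in WT-Ketamine and at 670.4 and 638 CPM in fAD-Ketamine mice, and differed from GA by 0.10 (SE 0.28, adjusted p = 0.861).

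A list of 33 related genes holds other potassium channels, calcium sources, partners of the channels, and the muscarinic and PIP2 control of M-channels, and 32 of them were measured in at least 1 tested class. For GA against awake, 6 of their 254 tests passed (2.36%, beside 4.55% of all tests), 1 higher and 5 lower. Kcnmb4, a subunit that modifies the large-conductance calcium-activated channel, was lower in the subiculum and cortex class (-0.73, edgeR adjusted p = 0.00215), in CA1-like nuclei (-0.50, adjusted p = 0.044) and in dentate nuclei (-0.40, adjusted p = 0.0478). The sodium-activated channel gene Kcnt1 was higher in astrocytes (1.53, adjusted p = 0.00538), and Kcnt2 was lower in the subiculum and cortex class (-0.88, adjusted p = 0.0325). The L-type calcium channel gene Cacna1d was lower in astrocytes (-0.51, adjusted p = 0.021). Of the partners (86 tests) and of the muscarinic and PIP2 control (75 tests), 0 passed.

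For ketamine against GA, 11 of 254 tests passed (4.33%, beside 5.17% of all), 7 higher and 4 lower. The ryanodine receptors, which release calcium from stores, were among those higher: Ryr3 in CA1-like nuclei (0.68, edgeR adjusted p = 0.01) and Ryr2 in the subiculum and cortex class (0.67, adjusted p = 0.0109) and in CA1-like nuclei (0.60, adjusted p = 0.0241). Kcnma1, the pore of the large-conductance calcium-activated channel, was higher in the subiculum and cortex class (0.56, adjusted p = 0.0177). The 4 that were lower were in oligodendrocytes and astrocytes. Against awake mice, 14 of 254 tests passed (5.51%, beside 6.96% of all), 6 higher and 8 lower.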

How the data were processed

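RNA of single hippocampal nuclei was sequenced from 20 mice. The deposited matrices hold raw UMI counts per gene and nucleus that the authors made with Cell Ranger 5.0.0 on mm10, with introns counted per the methods. The methods also name CellBender, DoubletFinder and Harmony, whereas the file headers name Cell Ranger only. The values are whole counts, from which it cannot be told whether CellBender had been applied. The kit version and the way tissue was taken differ between methods and labels. No column of unmapped samples was left out.

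From these counts, a minimum of 200 genes per nucleus removed 0 nuclei, doublet scores were computed within each mouse (0.8% expected per 1000 nuclei), and nuclei were clustered on 2000 variable genes without the members and the related list, with 30 principal components and 20 neighbours, by the Leiden method (leidenalg 0.10.2) at resolution 1. Of all nuclei, 6.74% were marked as doublets, and clusters with over 40% marked were removed. A cluster was named with at least 3 raised markers and 1 among its top 10 genes. Subclusters of inhibitory nuclei did not need the latter, and 1 Sst cluster (710 nuclei) and 1 Vip cluster (267 nuclei) had no own marker among their top 10 genes. Sums of at least 50 nuclei per mouse and class entered edgeR 4.0.16 (R 4.3.3), with TMM, a filter on low counts, 1 model of all 20 mice per class, the quasi-likelihood test and Benjamini-Hochberg adjustment within the class at 0.05. Differences are log2. The number of mice limits the precision, and p-values treat mice as replicates. Classes were ordered with permutation tests (100000 resamples, log2(CPM + 1)), and single values in CA1-like nuclei were compared with exact permutation tests, all two-sided. The test was tried on simulated counts.

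The members and lists were chosen with earlier results of these data known. Named are the 5 members, the 3 genes most like each, and of the related list at most the 5 with the smallest adjusted p per comparison. Kcnmb4 in dentate nuclei was named beyond these after its value was seen. The class comparison of Kcnq3, the look at Prnp, the gene length description, the CA1-like fit of nuclei assigned 1 by 1 and part of the rule for naming clusters were also chosen after seeing the data. Alternatives were DESeq2 1.42.0, its size factors, no filter, runs as a block, doublets kept, resolution 2, nuclei assigned 1 by 1 from markers, fits without ketamine mice or mice 1 to 4, and each mouse left out.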

Additional observations from a re-analysis of the deposited data

Results flagged for a closer look

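Kcnq3 under GA differed between classes by a test of the difference itself: astrocytes gained 1.85 log2 over CA1-like nuclei, 1.61 over the subiculum and cortex class and 1.15 over oligodendrocytes (exact permutation tests of 7 GA against 9 awake mice, p = 0.000175, 0.000175 and 0.00035). These tests were chosen after the values had been seen.

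In 69 groups of 4 to 6 mice, 3 had a mouse far from the others, where chance gives about 1 in 20. Kcnn1 in dentate nuclei was at 2.17 CPM in fAD-GA mouse 15, against 2.98 to 3.11 CPM in the other mice of that group. Kcnn1 in the subiculum and cortex class was at 7.06 CPM in WT-Awake mouse 29, against 4.62 to 5.39 CPM. Over 20 mice, dentate nuclei held 184 UMIs of Kcnn1 and the subiculum and cortex class 271, so both Kcnn1 gaps rest on few molecules. Kcnn3 in CA3-like nuclei was at 15.0 CPM in fAD-GA mouse 4, against 10.8 to 11.3 CPM.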

How the results depend on the processing

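Of the members' 36 tests per comparison, 6 passed for GA against awake over both genotypes, 10 did with DESeq2 and 11 with runs of mouse numbers as a block, while the share over all genes went from 4.55% to 5.89% and 7.67%. The members had 45 tests without the gene filter, 40 with doublets kept, 34 without mice 1 to 4 and 25 with nuclei assigned 1 by 1. For fits with 1 mouse left out, the share over all genes is not given, so their counts stand without it. In WT-labelled mice 0 passed, against 4 with DESeq2, 2 without the gene filter, 2 with the block, 2 without mice 1 to 4, 1 with doublets kept, 1 with finer clusters and 1 with nuclei assigned 1 by 1, and 0 to 2 when 1 mouse was left out; over all genes the share was 0.725%, 1.98% with DESeq2, 2.07% with the block and 0.251% to 0.665% under the other 5. In fAD-labelled mice 1 passed, against 4 with the block, 0 with doublets kept and 0 to 2 with 1 mouse left out (0 without fAD-Awake mouse 10, 2 without fAD-GA mouse 11), with 0.566% of all genes' tests, 1.89% with the block and 0.394% with doublets kept. For ketamine against awake 0 passed, against 2 without mice 1 to 4 (6.96% and 5.24% over all genes) and 0 to 1 with 1 mouse left out. For ketamine against GA 3 passed, against 6 with DESeq2, 6 without mice 1 to 4, 0 with the block and 0 to 5 with 1 mouse left out (0 without WT-Ketamine mouse 27, 1 without fAD-Ketamine mouse 25, 5 without fAD-GA mouse 11), and over all genes 5.17% passed, against 7.14%, 3.88% and 0.00672% in the first 3 of these settings. Kcnn2 in CA1-like nuclei changed sign: GA against awake was 0.017 without mice 1 to 4, and ketamine against GA was -0.189 with the block, -0.142 with nuclei assigned 1 by 1, -0.136 without mice 1 to 4, -0.016 without WT-GA mouse 3 and -0.023 without fAD-GA mouse 4, with a range of -0.023 to 0.305 over single mice left out. Kcnn3 in CA1-like nuclei, GA against awake, turned to -0.195 with nuclei assigned 1 by 1. Of 289 alternative values of the 10 called differences, 241 stayed past the threshold, 48 did not and 0 changed sign; of 155 levels, 147 moved by less than 1 SD and 8 by more. With nuclei assigned 1 by 1, the counts leave out CA1-like nuclei, since WT-Ketamine kept 1 mouse. A fit that assumes this mouse to vary like the others, added after seeing the data, kept the Kcnq3 call of GA against awake (-0.65, adjusted p = 0.0172). The causes were not tested. Kcnn1 had 1064 UMIs in all, so its values rest on few counts. Replicate numbers are mouse numbers and none occurs in 2 groups, so they pair no mice; the block uses runs of consecutive numbers, which the labels do not name as batches.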
